A study of Mus musculus with 9 samples.

Results

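The complement components and regulators described here are 9 genes: C3, C4b, Cfi, Cfb, Serping1, Cd55, Cd59a, C1ra and C1s1. They were picked by name as parts of the complement system and found in the raw count table through their Ensembl identifiers, where they are 9 of 55359 genes. All 9 passed the filter on low counts, which left 17179 genes to be tested.

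Complement is a set of plasma and cell-surface proteins that tag and lyse microbes and damaged cells. The classical pathway starts when C1q binds a target and switches on C1r, which activates C1s, the protease that cuts C4 and C2. The alternative pathway works through factor B and factor D. Both lead to cleavage of C3, the step at which deposition on a surface is amplified. Soluble regulators (such as C1 inhibitor and factor I) and the membrane regulator CD55 limit these steps. CD59, also a membrane regulator, blocks the membrane attack complex. Most circulating complement comes from the liver, while kidney tubule cells, stromal cells and resident macrophages also transcribe some components, and complement deposits in glomeruli and tubules are a known feature of kidney disease.

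Whole kidney of mice was profiled by sequencing of polyadenylated RNA in 9 libraries, which form 3 groups of 3. NCD vehicle mice ate a control diet with 11.32% of calories from fat. HFD-STZ vehicle mice ate a diet with 49.0% of calories from fat and were injected 2 times with streptozotocin, a toxin of pancreatic beta cells, at 30 mg/kg on days 60 and 63, with glucose measured on day 65. HFD-STZ DHZ mice had the same diet and toxin and were then given 50 mg/kg of dehydrozingerone, a phenolic compound from ginger, by mouth for 2 weeks. All mice were 6 weeks old when the diets began, and the labels state neither strain nor sex nor what the vehicle was. Diet and toxin were always given together, so their shares of a difference between the model and control mice cannot be told apart. The groups follow the sample titles, because the treatment field names the compound for every library. Nothing in the labels says that the 9 tissues came from 9 animals, so the tests speak of the spread between these samples. Every library carries its own batch date, and these dates run in group order, so effects of batch and group cannot be told apart.

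Total counts ran from 15.1 to 47.5 M per library (M for mega), of which mitochondrially encoded genes took 39.2 to 60.4%. Counts on nuclear protein-coding genes ran from 2.13 M, in HFD-STZ vehicle replicate 2, to 15.2 M, in HFD-STZ DHZ replicate 2, and the 9 complement genes together had 674 to 6552 counts in these same libraries. Levels are given as CPM, counts per M of the library size after TMM scaling, the trimmed mean of log ratios between libraries. Y-linked transcripts were present in 4 libraries (NCD vehicle replicate 1, HFD-STZ vehicle replicates 2 and 3, HFD-STZ DHZ replicate 3) at 36.5 to 106 CPM of the total count and at no more than 0.209 CPM in the other 5. Xist ran the other way, at 500 to 779 CPM of the total count in those 5 and at no more than 0.848 CPM in the 4. The 2 kinds of library were thus unevenly spread over the groups. The label kidney matched its markers: 8 of 8 proximal tubule markers were tested and their summed level was 664 to 1320 CPM, beside 30.4 to 139 CPM for 6 hepatocyte markers. In bulk tissue, fewer cells of a type and less RNA per cell cannot be told apart.

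Promoter windows, 250 bases before to 50 bases after a transcription start, were found in the RefSeq table for 5 of the 9 genes (build GRCm38.p6) and are shown because these 5 include 3 genes that passed a test below and the pair C1ra and C1s1, which varied together. Each window was searched on both strands for the letters of the TATA box (TATAAA), the gamma interferon activated site (TTCNNNGAA), and for 2 motifs whose letter patterns are not spelled out here, the interferon stimulated response element and the NF-kB motif; these 4 motifs were found in 13.6%, 8.3%, 3.44% and 4.51% of all 32841 windows. Capitals mark the matches. The windows read 5′ to 3′ on the strand of the gene.
C3, chr17:57228087-57228386, minus strand: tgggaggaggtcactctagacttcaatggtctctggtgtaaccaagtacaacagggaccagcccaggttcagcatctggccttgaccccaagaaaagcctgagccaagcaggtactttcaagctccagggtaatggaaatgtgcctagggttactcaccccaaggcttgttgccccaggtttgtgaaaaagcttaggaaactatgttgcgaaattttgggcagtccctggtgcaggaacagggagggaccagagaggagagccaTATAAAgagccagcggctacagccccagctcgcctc
Cd55, chr1:130462695-130462994, minus strand: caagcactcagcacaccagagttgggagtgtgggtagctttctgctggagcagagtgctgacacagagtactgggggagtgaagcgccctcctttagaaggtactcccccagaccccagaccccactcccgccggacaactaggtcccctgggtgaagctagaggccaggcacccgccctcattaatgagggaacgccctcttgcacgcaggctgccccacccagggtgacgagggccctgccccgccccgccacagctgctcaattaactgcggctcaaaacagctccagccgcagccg
Cd59a, chr2:104095551-104095850, plus strand: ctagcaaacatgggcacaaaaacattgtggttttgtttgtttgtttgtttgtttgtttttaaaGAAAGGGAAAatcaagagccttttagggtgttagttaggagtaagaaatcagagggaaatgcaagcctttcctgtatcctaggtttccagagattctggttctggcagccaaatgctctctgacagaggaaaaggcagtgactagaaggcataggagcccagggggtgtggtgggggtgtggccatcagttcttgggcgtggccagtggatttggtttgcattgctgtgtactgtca
C1ra, chr6:124512371-124512670, plus strand: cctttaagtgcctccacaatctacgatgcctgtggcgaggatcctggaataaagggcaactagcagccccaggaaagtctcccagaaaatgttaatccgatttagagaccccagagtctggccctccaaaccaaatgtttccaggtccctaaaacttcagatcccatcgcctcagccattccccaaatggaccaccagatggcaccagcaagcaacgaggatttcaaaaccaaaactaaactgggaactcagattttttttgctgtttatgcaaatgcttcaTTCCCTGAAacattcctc
C1s1, chr6:124542272-124542571, minus strand: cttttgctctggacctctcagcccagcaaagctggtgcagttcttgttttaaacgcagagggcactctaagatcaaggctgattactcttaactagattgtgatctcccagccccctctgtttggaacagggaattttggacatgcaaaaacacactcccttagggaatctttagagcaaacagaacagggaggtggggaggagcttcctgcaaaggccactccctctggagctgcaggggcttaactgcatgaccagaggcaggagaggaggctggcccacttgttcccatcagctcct
The C3 window held a TATA box at position 265, counted from 1 at its first base, which is 14 bases past the annotated start. The Cd59a window held an interferon stimulated response element at position 64. The C1ra window held a gamma interferon activated site at position 283, inside the transcribed part. No match was found in the Cd55 window or in either of 2 overlapping C1s1 windows, of which the first is printed. GC content was 53.3% for C3, 63.3% for Cd55, 45.7% for Cd59a, 47.0% for C1ra and 52.0% for C1s1, beside a median of 52.7% over all windows. No window held more than 1 match. A match is a description of the letters and says nothing of binding. C4b, Cfi, Cfb and Serping1 are named only.

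Per 1000 bases of annotated exon, the scale on which genes can be compared, the 9 genes spanned a wide range in control kidney. This length joins the exons of all transcripts of a gene. For Cd55 it was 4853 bases, while the longest protein-coding transcript had 2533 bases, so the place of Cd55 below depends on this choice. Cd59a, which blocks the membrane attack complex at the cell surface, stood highest in NCD vehicle at 38.0 ± 4.48 CPM per kb (mean ± SD, n = 3 here and throughout). Serping1, the C1 inhibitor, followed at 8.06 ± 4.50 CPM per kb, and the proteases C1s1 and C1ra stood at 3.74 ± 3.37 and 2.13 ± 1.17 CPM per kb. C3 was at 1.00 ± 0.324 CPM per kb. The 4 lowest, Cd55 (0.439 ± 0.207), Cfi (0.430 ± 0.0856), Cfb (0.386 ± 0.209) and C4b (0.325 ± 0.129), did not differ from each other by more than their spread. Neighbours among Serping1, C1s1, C1ra and C3 also lay within their spread between libraries. Cd59a and Serping1, and with this length of Cd55 also C3 and Cd55, lay further apart than theirs. Within each NCD vehicle library, however, the order Serping1, C1s1, C1ra, C3 held, so that spread does not speak against this order. In HFD-STZ vehicle Cd59a again stood highest, at 40.3 ± 11.4 CPM per kb, then Serping1 (3.33 ± 1.04), C1s1 (1.49 ± 0.401), C3 (1.20 ± 0.577), C1ra (1.06 ± 0.271) and Cd55 (0.750 ± 0.236), while Cfb (0.331 ± 0.226), C4b (0.211 ± 0.165) and Cfi (0.190 ± 0.0719) stood lowest and within their spread. From C1s1 to Cd55, neighbours in that group also lay within their spread. In HFD-STZ DHZ Cd59a was at 22.9 ± 6.05 CPM per kb and the order below it changed: C3 stood at 5.68 ± 3.86 CPM per kb, next to Serping1 at 5.79 ± 0.396, and Cfi at 1.38 ± 0.960 stood next to Cd55 at 1.33 ± 0.0197.

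**Figure D1:**
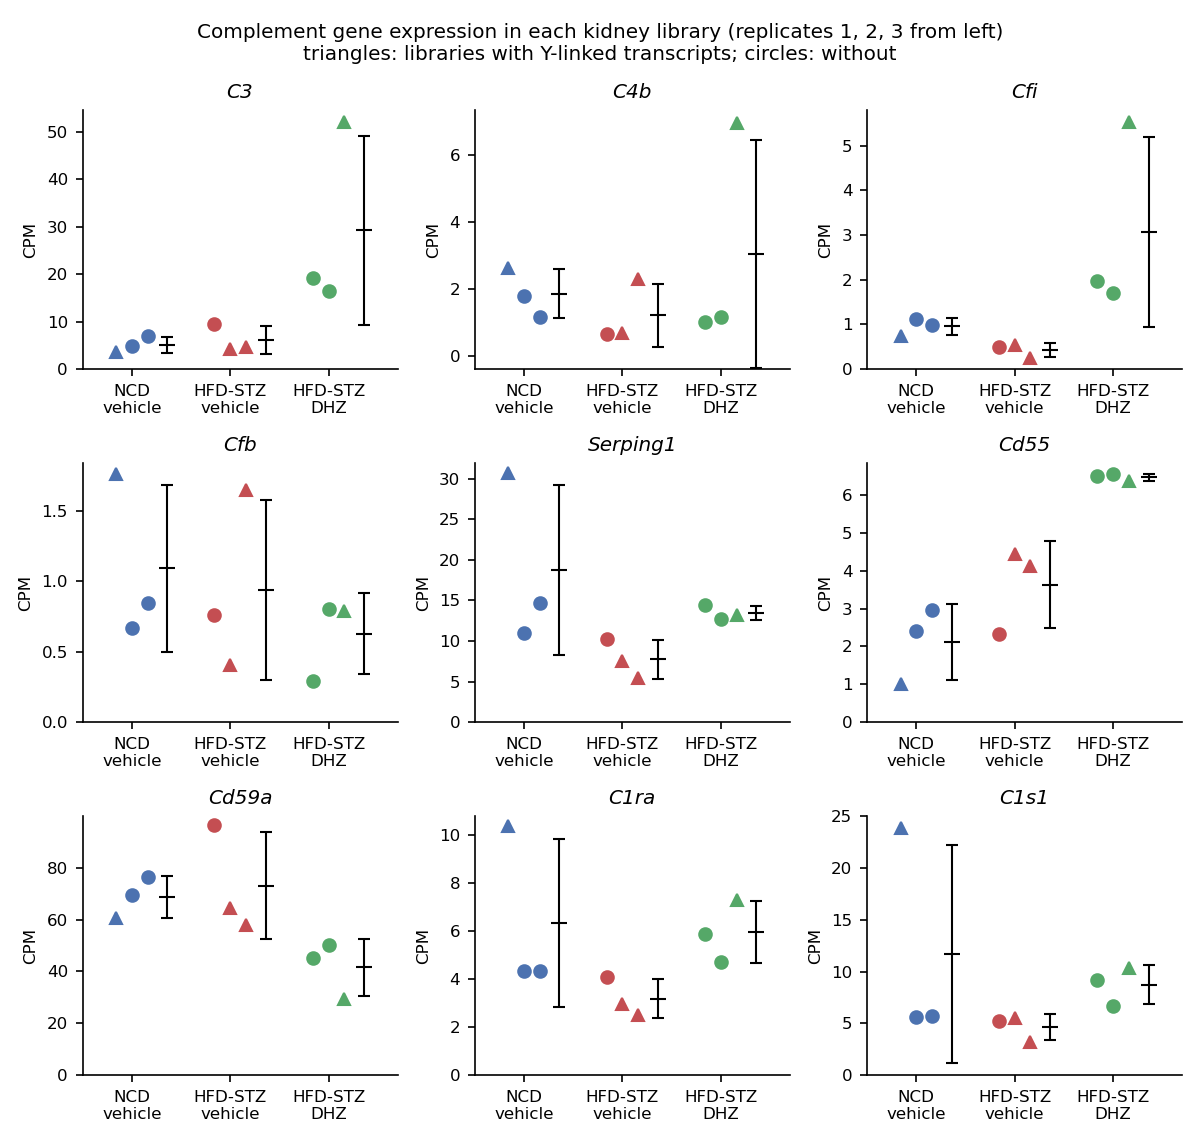
CPM of each of the 9 complement genes (y axis, linear) in the 9 libraries, grouped on the x axis; points are libraries, triangles carry Y-linked transcripts, and the bar beside each group is the mean ± SD (n = 3), which reaches below 0 for C4b. C3 lay between 16.5 and 52.1 CPM in HFD-STZ DHZ, above all 6 vehicle libraries, and the 3 HFD-STZ DHZ values of Cd55 lay between 6.37 and 6.56 CPM.

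In the diabetic model, the 9 complement genes gave no call. HFD-STZ vehicle was compared with NCD vehicle to ask what the diet and toxin changed, and 0 of 9 genes had an adjusted p below 0.05 (edgeR quasi-likelihood test, Benjamini-Hochberg adjustment over all 17179 genes), beside 0.0524% of all genes (0.0233% called higher and 0.0291% called lower). An unadjusted p under 0.05 was found for 4 genes, all with estimates below 0: Cfi, Serping1, C1ra and C1s1. The same 4 were the genes whose groups did not overlap, each lower in HFD-STZ vehicle. Over all genes 11.4% had no overlap, 4.83% higher and 6.56% lower. DESeq2 and limma-voom also called 0 of 9, with 4 and 1 at an unadjusted p under 0.05. The median log2 fold change of the 9 was −0.49, beside 0 over all genes.

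The proteases of the first classical step gave the following levels. C1ra, which activates C1s, had 10.4, 4.32 and 4.32 CPM in NCD vehicle replicates 1 to 3, 4.07, 2.97 and 2.49 CPM in HFD-STZ vehicle and 5.88, 4.70 and 7.27 CPM in HFD-STZ DHZ. C1s1, the protease that cuts C4 and C2, had 23.9, 5.57 and 5.67 CPM in NCD vehicle, 5.20, 5.53 and 3.21 CPM in HFD-STZ vehicle and 9.20, 6.66 and 10.4 CPM in HFD-STZ DHZ. For both genes NCD vehicle replicate 1 was the highest of the 9 libraries, the HFD-STZ vehicle libraries lay below all others, and the other 2 NCD vehicle libraries lay only just above them. The estimate of HFD-STZ vehicle against NCD vehicle was −0.98 on the log2 scale for C1ra (SE 0.37, adjusted p = 0.58) and −1.34 for C1s1 (SE 0.54, adjusted p = 0.63). Without NCD vehicle replicate 1 these became −0.45 and −0.30.

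Serping1 encodes the C1 inhibitor, a serpin that inactivates C1r and C1s. It had 30.6, 11.0 and 14.6 CPM in NCD vehicle, 10.3, 7.55 and 5.42 CPM in HFD-STZ vehicle and 14.5, 12.7 and 13.2 CPM in HFD-STZ DHZ. The HFD-STZ vehicle libraries were the 3 lowest of the 9, NCD vehicle replicate 1 was again the highest, and the HFD-STZ DHZ libraries lay within the range of NCD vehicle. The model estimate was −1.27 (SE 0.35, adjusted p = 0.36), and −0.73 without NCD vehicle replicate 1. Across the 9 libraries the log2 CPM of Serping1, C1ra and C1s1 ran together, with Pearson r of 0.95 for C1ra with C1s1, 0.93 for Serping1 with C1ra and 0.91 for Serping1 with C1s1; these 3 correlations share the same libraries and the high NCD vehicle replicate 1.

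Marker lists of kidney cell types are given beside these 3 genes. Of the markers of mesangial cells, fibroblasts and smooth muscle, 8 of 8 had model estimates below 0 (median −0.81, 0 called), and their summed level was 111 to 124 CPM in NCD vehicle, 59.1 to 81.0 CPM in HFD-STZ vehicle and 80.8 to 155 CPM in HFD-STZ DHZ. Endothelial markers had 7 of 7 model estimates below 0 and 0 calls, and summed to 112 to 146, 67.9 to 136 and 76.5 to 107 CPM in the 3 groups in that order. Podocyte markers had 5 of 5 below 0 and 0 calls, and summed to 51.4 to 69.9, 20.9 to 43.4 and 67.6 to 87.6 CPM. Proximal tubule markers had 7 of 8 below 0 with 1 call, Slc6a19, and summed to 994 to 1320, 664 to 1060 and 989 to 1040 CPM. Thick limb markers had 2 of 4 below 0 and 0 calls, and summed to 516 to 1130, 648 to 1560 and 994 to 2150 CPM. Collecting duct markers had 4 of 5 below 0 and 0 calls, and summed to 66.5 to 87.6, 55.6 to 90.3 and 43.8 to 57.0 CPM. No marker of these 6 lists was at 0 in any library. The part of these markers in the levels of Serping1, C1ra and C1s1 was not tested.

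The central components differed from each other. C4b, the substrate of C1s, had 2.62, 1.79 and 1.15 CPM in NCD vehicle, 0.651, 0.674 and 2.29 CPM in HFD-STZ vehicle and 0.999, 1.14 and 6.98 CPM in HFD-STZ DHZ. All 3 groups overlapped, and HFD-STZ DHZ replicate 3 stood alone above the rest. C3, the protein on which all pathways converge, had 3.58, 4.99 and 6.90 CPM in NCD vehicle, 9.60, 4.18 and 4.78 CPM in HFD-STZ vehicle and 19.2, 16.5 and 52.1 CPM in HFD-STZ DHZ. The vehicle groups overlapped in C3 and every HFD-STZ DHZ library lay above both. The model estimate was −0.49 for C4b (SE 0.81, 95% interval −2.30 to 1.31, adjusted p = 0.90) and 0.27 for C3 (SE 0.47, 95% interval −0.77 to 1.31, adjusted p = 0.90).

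The next 2 genes act on the C3 convertase from opposite sides. Cfb, whose product forms the alternative pathway convertase, was low throughout, with 1.76, 0.665 and 0.844 CPM in NCD vehicle, 0.759, 0.405 and 1.65 CPM in HFD-STZ vehicle and 0.294, 0.802 and 0.785 CPM in HFD-STZ DHZ. Its groups overlapped in every comparison, and the model estimate was −0.08 (SE 0.57, adjusted p = 0.98). Cfi, the protease that cuts C3b and C4b and so ends convertase activity, had 0.749, 1.12 and 0.997 CPM in NCD vehicle, 0.488, 0.540 and 0.241 CPM in HFD-STZ vehicle and 1.97, 1.71 and 5.53 CPM in HFD-STZ DHZ. The 3 groups did not overlap in Cfi, with HFD-STZ vehicle lowest and HFD-STZ DHZ highest. The HFD-STZ vehicle values of Cfi rested on 9, 4 and 6 counts, so their counting error is large. The model estimate for Cfi was −1.28 (SE 0.57, 95% interval −2.53 to −0.04, adjusted p = 0.66).

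Of the 2 membrane regulators, Cd55, which takes C3 convertases apart, had 1.02, 2.41 and 2.97 CPM in NCD vehicle, 2.33, 4.45 and 4.13 CPM in HFD-STZ vehicle and 6.50, 6.56 and 6.37 CPM in HFD-STZ DHZ. The vehicle groups overlapped and the HFD-STZ DHZ libraries, which differed little among themselves, lay above both. Cd59a had 60.4, 69.5 and 76.6 CPM in NCD vehicle, 96.6, 64.6 and 58.0 CPM in HFD-STZ vehicle and 45.0, 50.4 and 29.3 CPM in HFD-STZ DHZ. For Cd59a the vehicle groups overlapped and the HFD-STZ DHZ libraries were the 3 lowest of the 9. The model estimates were 0.72 for Cd55 (SE 0.36, adjusted p = 0.70) and 0.09 for Cd59a (SE 0.27, 95% interval −0.49 to 0.66, adjusted p = 0.95).

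**Figure D2:**
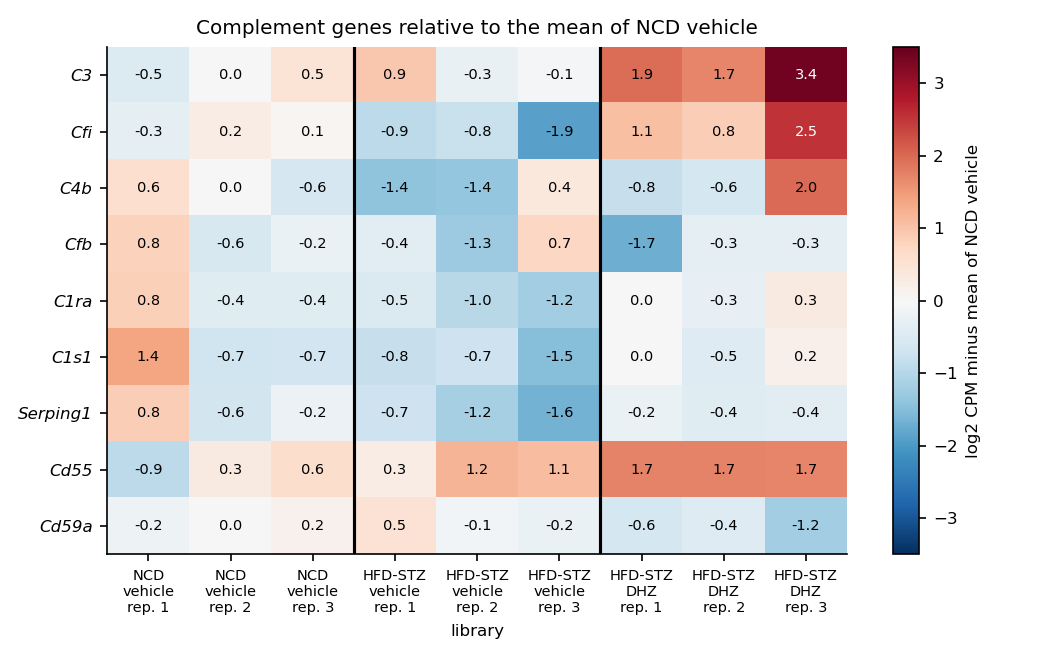
Log2 CPM minus the mean log2 CPM of NCD vehicle (color and printed value) for each complement gene (rows) in each library (columns, in group order). HFD-STZ DHZ replicate 3 holds the largest values for C3 (3.4), Cfi (2.5) and C4b (2.0), and NCD vehicle replicate 1 holds the largest values for C1s1 (1.4), Serping1, C1ra and Cfb.

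Dehydrozingerone went with higher C3 and Cfi and lower Cd59a in the diabetic kidney. HFD-STZ DHZ was compared with HFD-STZ vehicle to ask what the compound changed, and 3 of 9 genes were called, beside 22.1% of all genes. Higher were 2 genes, C3 and Cfi, beside 10.0% of all genes, and 1, Cd59a, was lower, beside 12.0%. With 9 genes, a count of 3 is not read as more than this background. Groups did not overlap for 7 of 9 genes (6 higher, 1 lower), where 39.8% of all genes had no overlap, 20.9% higher and 19.0% lower. The median log2 fold change of the 9 was 0.90, beside 0.04 over all genes.

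C3 rose 4.65-fold, from 6.18 ± 2.97 to 29.2 ± 19.8 CPM (log2 fold change 2.22, SE 0.48, 95% interval 1.16 to 3.27, adjusted p = 0.011). All 3 HFD-STZ DHZ libraries lay above every HFD-STZ vehicle library. Much of the size of the rise rested on HFD-STZ DHZ replicate 3: without it the log2 fold change was 1.51 (adjusted p = 0.020). Without the shallow HFD-STZ vehicle replicate 2 it was 2.03 (adjusted p = 0.049), and with a term for libraries that hold Y-linked transcripts it was 2.21 (adjusted p = 0.0068). Within the 5 libraries without Y-linked transcripts C3 was at 4.99 and 6.90 CPM in NCD vehicle, 9.60 CPM in HFD-STZ vehicle and 19.2 and 16.5 CPM in HFD-STZ DHZ. Within the 4 that carry them it was at 3.58 CPM in NCD vehicle, 4.18 and 4.78 CPM in HFD-STZ vehicle and 52.1 CPM in HFD-STZ DHZ.

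Cfi rose 7.70-fold, from 0.423 ± 0.160 to 3.07 ± 2.13 CPM (log2 fold change 2.95, SE 0.55, 95% interval 1.75 to 4.14, adjusted p = 0.0064). Its log2 fold change was 2.22 (adjusted p = 0.012) without HFD-STZ DHZ replicate 3, 3.10 (adjusted p = 0.012) without the shallow HFD-STZ vehicle library and 3.00 with the term for Y-linked transcripts (adjusted p = 0.0034). C3 and Cfi were called in each of these 3 refits. Across the 9 libraries their log2 CPM had a Pearson r of 0.83.

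Cd59a fell 1.76-fold, from 73.1 ± 20.6 to 41.5 ± 11.0 CPM (log2 fold change −0.81, SE 0.27, 95% interval −1.40 to −0.23, adjusted p = 0.047). This call was close to the threshold: it was lost when any 1 of 8 libraries was left out and held, with an adjusted p of 0.041, only without HFD-STZ vehicle replicate 3. The adjusted p reached 0.15 and the estimate stayed between −0.97 and −0.58. The smallest fall, −0.58, was without HFD-STZ vehicle replicate 1, whose 96.6 CPM was the highest value of the gene. With the term for Y-linked transcripts it was −0.99 (adjusted p = 0.0063).

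The other 6 genes did not pass the test under the compound. Cd55 gave 0.85 on the log2 scale (SE 0.35, adjusted p = 0.099), C1ra 0.90 (SE 0.36, adjusted p = 0.092), Serping1 0.80 (SE 0.35, adjusted p = 0.12) and C1s1 0.93 (SE 0.53, adjusted p = 0.23). In these 4 every HFD-STZ DHZ library lay above every HFD-STZ vehicle library. All 4 passed when NCD vehicle replicate 1, which is in neither group but enters the shared estimate of the spread, was left out, with adjusted p of 0.041, 0.033, 0.038 and 0.027. C4b gave 1.22 (SE 0.79, adjusted p = 0.29), which became −0.25 without HFD-STZ DHZ replicate 3. With the term for Y-linked transcripts C4b gave 1.43 and passed (SE 0.47, adjusted p = 0.045). HFD-STZ DHZ replicate 3 is the only library of its group with these transcripts. Cfb gave −0.67 (SE 0.56, adjusted p = 0.41).

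Scaling by library size alone, without TMM, gave a median log2 fold change over all genes of −0.74 in the model comparison and 0.81 under the compound. With TMM these medians were 0 and 0.04. Of the genes then called under the compound, 832 of 888 (93.7%) were higher, where TMM gave 1726 of 3796 (45.5%). C3 and Cfi kept their direction and call under that scaling (2.76 and 3.70), whereas Cd59a, at −0.17 with an adjusted p of 0.86, lost its call. In the model comparison C3, Cd55 and Cd59a changed sign under it.

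**Figure D3:**
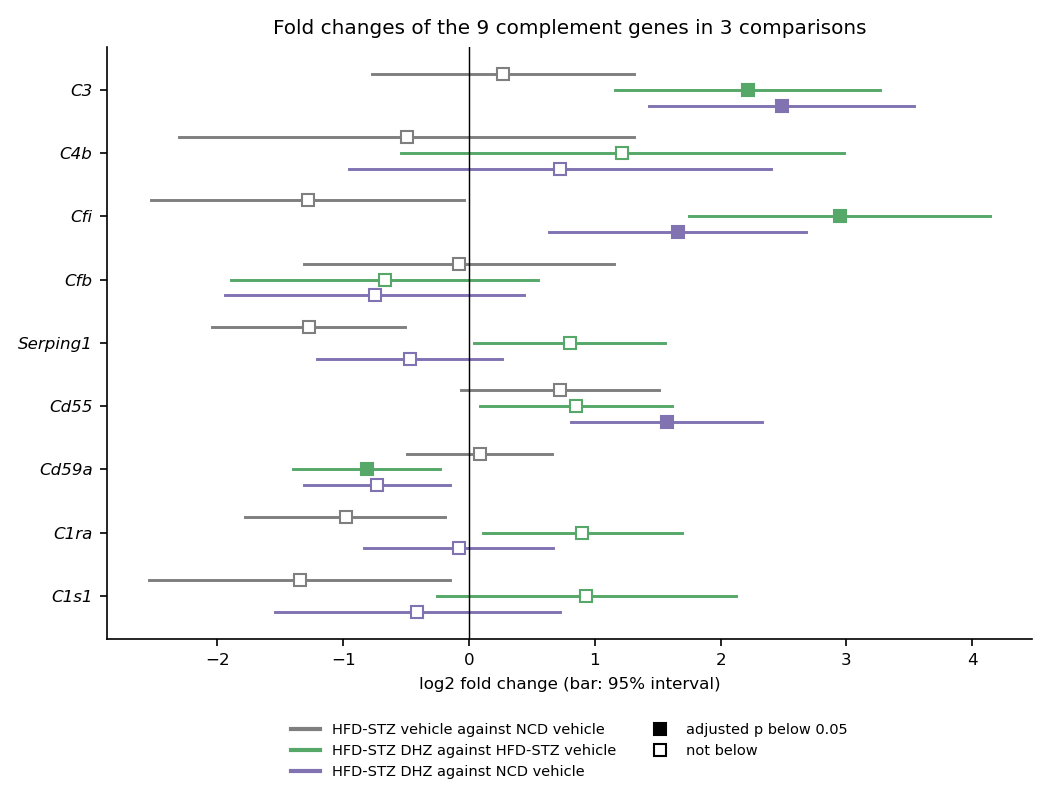
Log2 fold change (x axis) of each complement gene with its 95% interval in the 3 comparisons, by color; filled squares have an adjusted p below 0.05. No square is filled for HFD-STZ vehicle against NCD vehicle, C3, Cfi and Cd59a are filled for the compound against its vehicle, and C3, Cfi and Cd55 for the treated mice against NCD vehicle.

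**Figure D4:**
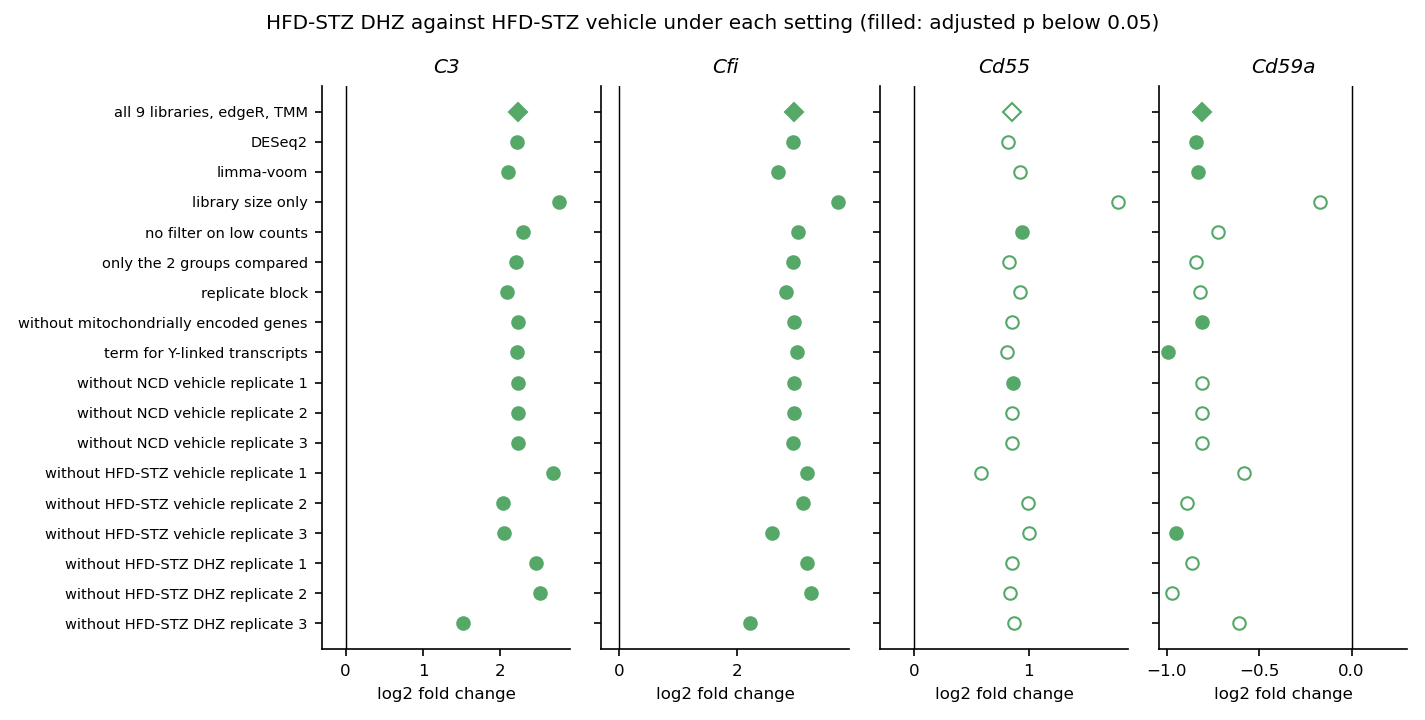
Log2 fold change of C3, Cfi, Cd55 and Cd59a under the compound (x axes, scaled per gene), in the fit of all 9 libraries (diamond) and under each other setting (circles, y axis); filled symbols have an adjusted p below 0.05. C3 and Cfi are filled in every row, with their lowest values, 1.51 and 2.22, without HFD-STZ DHZ replicate 3; Cd59a is open in most rows and lies at −0.17 with library size only.

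Against control kidney, C3, Cfi and Cd55 were higher in HFD-STZ DHZ. This comparison asks how far the treated diabetic kidney differs from NCD vehicle; it shares its libraries with the other 2, so their results are not independent of each other. Called were 3 of 9 genes, all higher, beside 13.7% of all genes called, 6.31% higher and 7.38% lower. Groups did not overlap for 3 genes that were higher and for Cd59a, which was lower, where 44.1% of all genes had no overlap, 22.4% higher and 21.7% lower. The median log2 fold change of the 9 was −0.08, beside 0.01 over all genes.

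C3 was 5.61-fold higher than in NCD vehicle (log2 fold change 2.49, SE 0.48, adjusted p = 0.013), from 5.16 ± 1.67 CPM. Cfi was 3.16-fold higher (log2 fold change 1.66, SE 0.47, adjusted p = 0.037), from 0.956 ± 0.190 CPM. Cd55 rose 2.98-fold, from 2.13 ± 1.00 to 6.47 ± 0.0958 CPM (log2 fold change 1.57, SE 0.35, 95% interval 0.81 to 2.33, adjusted p = 0.018). All 3 calls were lost without NCD vehicle replicate 1, where the estimates were 2.29, 1.53 and 1.27 and the adjusted p 0.060, 0.13 and 0.058. That of Cfi was lost without any 1 of the 6 libraries compared, with 0.94 and an adjusted p of 0.14 without HFD-STZ DHZ replicate 3, and that of Cd55 without HFD-STZ DHZ replicate 1 (adjusted p = 0.071) or 2 (adjusted p = 0.068).

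The remaining 6 did not pass against NCD vehicle. Cd59a gave −0.73 (SE 0.27, 95% interval −1.31 to −0.15, adjusted p = 0.085), and was called with DESeq2 (adjusted p = 0.040) and with the term for Y-linked transcripts (adjusted p = 0.017). The interval for C1ra, whose estimate was −0.08, and those for Serping1 (−0.47), C1s1 (−0.41), Cfb (−0.75) and C4b (0.72) all held 0. For C1s1 it ran from −1.54 to 0.72, so a difference of either sign is within it.

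The rest of the complement system was read from a list of 46 further genes, of which 32 passed the filter on low counts. In the model 0 of 32 were called, with 4 at an unadjusted p under 0.05 (Mbl1, C2, Colec12 and C8g). Under the compound 7 of 32 were called, 5 higher and 2 lower, which is close to the 22.1% of all genes, and the median log2 fold change was 0.03 beside 0.04 over all genes. Against NCD vehicle 3 of 32 were called, all higher, beside 13.7% of all genes called and 6.31% called higher. They were C1qb (1.23, adjusted p = 0.030), C1qc (1.09, adjusted p = 0.030) and Itgb2 (1.14, adjusted p = 0.045). All 3 of these calls were lost without NCD vehicle replicate 1 or 2 or without any 1 HFD-STZ DHZ library, at adjusted p of up to 0.14.

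Among recognition molecules, 3 of 6 tested were called higher under the compound and 0 lower, beside 10.0% and 12.0% of all genes. With 6 genes, this count is not read as a result about recognition molecules. The 3 were the chains of C1q, the molecule that starts the classical pathway. C1qb had 2.82, 1.08 and 1.49 CPM in HFD-STZ vehicle and 4.70, 4.94 and 7.30 CPM in HFD-STZ DHZ, a 3.03-fold rise (log2 fold change 1.60, SE 0.34, adjusted p = 0.0096). C1qa rose 3.63-fold (log2 fold change 1.86, SE 0.48, adjusted p = 0.019) and C1qc rose 2.42-fold (log2 fold change 1.28, SE 0.30, adjusted p = 0.014). In all 3 chains the HFD-STZ DHZ libraries lay above those of both vehicle groups. C1qa was at 0.135 CPM, a single count, in HFD-STZ vehicle replicate 2. Its call was lost, at adjusted p of 0.051 to 0.054, without HFD-STZ vehicle replicate 3 or any 1 HFD-STZ DHZ library.

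Of 7 receptors tested, 2 were called higher under the compound and 0 lower, beside the same 10.0% and 12.0% of all genes. C3ar1, the receptor of the C3a fragment, had 0.705, 0.270 and 0.361 CPM in HFD-STZ vehicle and 1.38, 1.27 and 1.60 CPM in HFD-STZ DHZ (log2 fold change 1.59, SE 0.42, adjusted p = 0.021), a call lost at adjusted p of 0.055 to 0.066 without HFD-STZ vehicle replicate 3 or HFD-STZ DHZ replicate 1 or 2. Itgb2, the beta chain of the integrins that bind iC3b, had 0.596, 0.809 and 0.642 CPM in HFD-STZ vehicle and 2.18, 1.59 and 3.05 CPM in HFD-STZ DHZ (log2 fold change 1.76, SE 0.38, adjusted p = 0.0095). Its partners Itgam (0.73, adjusted p = 0.39) and Itgax (0.97, adjusted p = 0.18) did not pass, nor did the C5a receptor C5ar1 (−0.51, adjusted p = 0.53).

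Counts for the remaining lists also stand beside 10.0% of all genes called higher and 12.0% called lower. The proteases gave 1 fall in 6 tested genes, C1rl, a relative of C1r, from 12.1, 11.7 and 16.6 CPM to 8.29, 6.42 and 8.64 CPM (log2 fold change −0.80, SE 0.23, adjusted p = 0.029). With library size alone it was −0.03. The call of C1rl went, at adjusted p of 0.084 to 0.12, when HFD-STZ vehicle replicate 3 or HFD-STZ DHZ replicate 1 or 2 was left out. The membrane regulators gave 1 fall in 5, Csmd1 (−1.22, SE 0.39, adjusted p = 0.045), which lost its call without any 1 library other than HFD-STZ vehicle replicate 3 (−0.75 without HFD-STZ vehicle replicate 2). Soluble regulators gave 0 calls in 4 tested. Clu, an inhibitor of the terminal complex, had 0.90 (adjusted p = 0.070). Central and terminal components gave 0 calls in 4 tested, and C8b was at 0 in all 9 libraries.

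**Figure D5:**
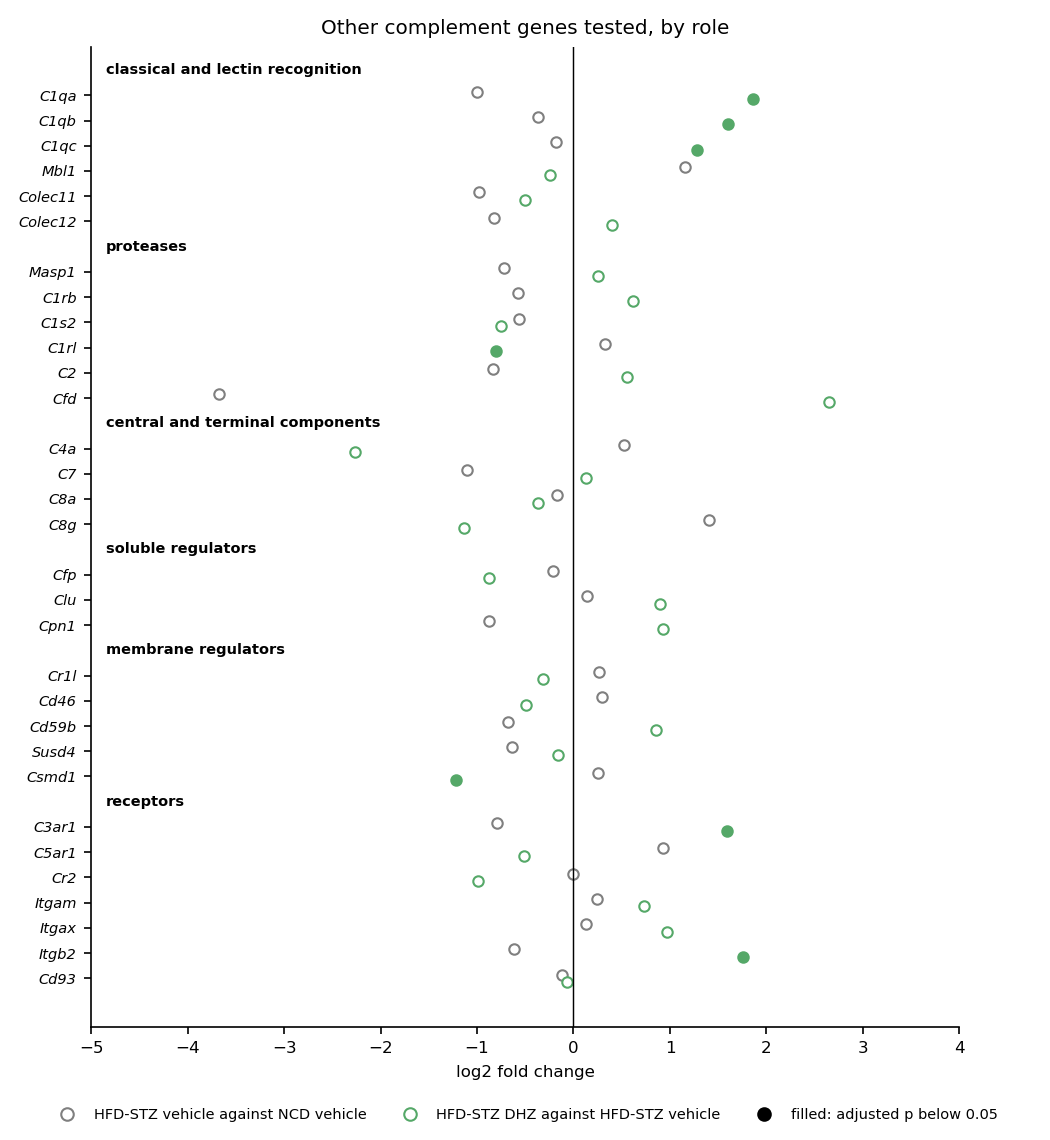
Log2 fold change (x axis) of other complement genes tested, by role (y axis), for the model against control mice (gray) and the compound against its vehicle (green); filled points have an adjusted p below 0.05. The 3 C1q chains, C3ar1 and Itgb2 are filled on the right, and C1rl and Csmd1 on the left.

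Values of other cell types stood beside the rises of C3, Cfi, the C1q chains, C3ar1 and Itgb2. Of 8 macrophage markers 7 were tested under the compound, 0 were called higher and 1, Csf1r, was called lower (−1.09, adjusted p = 0.027). The other 6 had estimates above 0, and the median was 0.82 beside 0.04 over all genes. For 3 of the 6, Lyz2, Cd68 and Aif1, all HFD-STZ DHZ libraries lay above all HFD-STZ vehicle libraries, as for 20.9% of all genes. The summed level of the list was 34.2 to 50.1 CPM in NCD vehicle, 25.2 to 52.5 CPM in HFD-STZ vehicle and 34.0 to 40.1 CPM in HFD-STZ DHZ, with Cd163 at 0 in HFD-STZ vehicle replicate 2. Most of that sum in every vehicle library was Csf1r. It was at 24.7 to 38.7 CPM in NCD vehicle, 14.4 to 33.0 CPM in HFD-STZ vehicle and 7.88 to 11.6 CPM in HFD-STZ DHZ. The part of the macrophage markers in the rises was not tested. Of the stromal list above, 3 of 8 rose under the compound: Pdgfrb (1.13, adjusted p = 0.0096), Col3a1 (1.80, adjusted p = 0.012) and Tagln (1.29, adjusted p = 0.042). So did 2 of 5 podocyte and 2 of 8 proximal tubule markers, whereas 0 of 7 endothelial markers were called. Of 4 thick limb markers 2 rose, Cldn16 and Kcnj1 (list median 1.19), and of 5 collecting duct markers 1, Aqp3, fell (list median −0.54). These marker counts stand beside 10.0% of all genes called higher and 12.0% called lower under the compound.

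Fat and liver, which both make C3, were followed by their own markers. The white adipocyte markers summed to 450 to 937 CPM in NCD vehicle, 271 to 609 CPM in HFD-STZ vehicle and 249 to 365 CPM in HFD-STZ DHZ, with 7 of 8 tested and 1, Cidec, called higher under the compound. Of these 7, 6 had estimates above 0 under the compound and 1, Lpl, below 0. Their median was 2.74 beside 0.04 over all genes. For 3 of the 7, every HFD-STZ DHZ library lay above every HFD-STZ vehicle library, as for 20.9% of all genes. Most of that sum was Lpl, which kidney also expresses, at 224 to 921 CPM. Their defining members were uneven: Adipoq was at 1.84 CPM in NCD vehicle replicate 3, at 4.41 and 2.65 CPM in HFD-STZ DHZ replicates 1 and 3 and at 0 in HFD-STZ DHZ replicate 2. In that replicate 2, Lep and Retn were also at 0 and Plin1 was at 0.0154 CPM. Cidec (0.602 CPM), Thrsp (0.524 CPM) and Fabp4 (24.5 CPM) were each above every HFD-STZ vehicle library there. C3 was at 16.5 CPM in the same library. Cfd, the adipocyte protease adipsin, followed the Adipoq libraries, with 22.2 CPM in NCD vehicle replicate 3, 7.73 and 3.93 CPM in HFD-STZ DHZ replicates 1 and 3 and 0 in replicate 2. The hepatocyte markers summed to 30.4 to 55.7 CPM in NCD vehicle, 69.8 to 139 CPM in HFD-STZ vehicle and 65.6 to 115 CPM in HFD-STZ DHZ, with 5 of 6 tested and 0 called under the compound. Of these 5, 4 had estimates above 0 under the compound (median 0.66). Apob was at 17.5 to 34.9 CPM in NCD vehicle, 17.5 to 50.7 CPM in HFD-STZ vehicle and 76.7, 75.9 and 24.5 CPM in HFD-STZ DHZ. Serpina1c was at 17.6, 14.3 and 2.38 CPM in HFD-STZ DHZ, beside 1.21 to 9.35 CPM in the vehicle libraries, and Ahsg was at 0 in 7 of the 9 libraries. The part of fat and liver RNA in the C3 values was not tested.

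Several of the 9 genes have near-identical copies, and the sources used here do not give how reads that match 2 genes were counted. In GENCODE M21 transcripts, 50.8% of the 50-base windows of C1ra also occur in another gene, C1rb among them, as do 35.2% for C4b (in C4a), 24.3% for C1s1 (in C1s2), 13.3% for Cd55 (in Cd55b) and 3.98% for Cd59a (in Cd59b); C3, Cfi and Serping1 share none. For Cfb it is 81.4%, because the read-through gene Gm20547 contains it on the same strand, and that gene had 0 counts in every library. Levels of C4b, Cfb, C1ra and C1s1 are therefore uncertain. The copy C4a had 0.596, 0.944 and 2.41 CPM in HFD-STZ vehicle and 0.118, 0.170 and 0.582 CPM in HFD-STZ DHZ (−2.27, adjusted p = 0.053), opposite in sign to the estimate of C4b. In each group the highest C4a value was in a library with Y-linked transcripts. Cd59b (0.86, adjusted p = 0.33) and C1s2 (−0.75, adjusted p = 0.42) were also opposite in sign to Cd59a and C1s1. C1rb (0.62, adjusted p = 0.34) had the sign of C1ra. Cd55b had at most 4 counts in a library, beside 19 to 425 for Cd55.

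Single libraries stood out in a pattern that differed by gene. Of the 9 genes, 4 had their highest CPM of all libraries in NCD vehicle replicate 1 (Cfb, Serping1, C1ra and C1s1) and 3 in HFD-STZ DHZ replicate 3 (C3, C4b and Cfi). Both of these libraries carry Y-linked transcripts. Among the 32 other complement genes these libraries held the highest value for 6 and 8. The share over all genes was not counted, so these counts are not read as a trait of complement genes.

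For each gene, the gene whose log2 CPM ran closest to it over the 9 libraries was taken from 10086 tested genes of at least 1 mean log2 CPM. These correlations share libraries and depth with the genes they describe. C3 ran closest to Ctss, a lysosomal protease (Pearson r = 0.98), Cfi to Mpeg1 (0.956), Serping1 to Fbln5 (0.95), C1ra to Ddr2 (0.932), C1s1 to Col14a1 (0.96), Cd55 to Cpped1 (0.995), Cd59a to Fads6 (0.972), Cfb to Rnf187 (0.96) and C4b to Mdp1 (0.895). The mean profile of all 9 ran closest to Pxdn and Fn1 (0.95 each), with Nup160 (0.931) and Anxa3 (0.925) also among the closest.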

How the data were processed

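The table the authors deposited holds raw whole-number counts of 9 kidney libraries and 0 further sample columns. The reads went through Trim Galore, STAR and FastQC with build GRCm39 (mm39), per the submitters' processing notes; the sources used here do not give versions, the counting program or its strand and multiple-match settings, and the libraries are stranded per the labels' protocols. Symbols matched 94.1% of the 55359 Ensembl identifiers. In R 4.3.3, filterByExpr left 17179 genes, libraries were scaled by TMM, and all 9 entered 1 edgeR 4.0.16 robust quasi-likelihood fit with group as its only term (6 residual degrees of freedom, common dispersion 0.0893). Calls are at a Benjamini-Hochberg adjusted p below 0.05 over all genes tested, two-sided. Standard errors and intervals were derived from the F statistic. Alternatives used DESeq2 1.42.0, limma 3.58.1 (voom), other scaling and filters, a replicate block, a Y-linked term and leaving out each library. The test was run on simulated data first. Same-group libraries differed by 14 to 265 in chi-square per gene, more than sampling noise, so none was counted once with another. Exon lengths and shared sequence come from GENCODE M21 (GRCm38), promoters from RefSeq (GRCm38.p6). The members, the 46 other complement genes and the marker lists (proximal tubule, thick limb, collecting duct, podocyte, endothelial, stromal, macrophage, white adipocyte, hepatocyte) were chosen with earlier results of these data known. All members are named; other complement genes are named if called, as a copy of a member, or, after their values were seen, as examples; genes of like pattern are those with the highest Pearson r. Items withheld for evaluation are not reported here.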

Additional observations from a re-analysis of the deposited data

How the results depend on the processing

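Of the 9 complement genes, 0 were called in the model under every alternative except no filter on low counts, which called 2 (Serping1, −1.30, and C1s1, −1.36). Under the compound 3 were called, 4 with a term for Y-linked transcripts, which added C4b, and 2 to 6 when 1 library was left out. With no filter 7 were called, all higher, C4b among them (adjusted p = 0.0097) and Cd59a not (adjusted p = 0.079). Against NCD vehicle 3 were called, 1 (C3) with library size only, and 0 to 3 when 1 library was left out, with 0 without NCD vehicle replicate 1 and 1 without HFD-STZ DHZ replicate 1 or 2. Over all genes the model gave 9 calls, 126 with DESeq2, 2 with limma-voom, 29 with library size only, 425 without a filter, 3 from the 2 groups alone, 42 with a term for Y-linked transcripts and 2 to 28 when 1 library was left out. The compound gave 3796, 888 with library size only and 1149 to 4086 when 1 library was left out (lowest without HFD-STZ DHZ replicate 1, 1302 without replicate 2). HFD-STZ DHZ against NCD vehicle gave 2352, 3530 with DESeq2, 36 with library size only, 3981 from the 2 groups alone, 3617 with the Y-linked term and 112 to 3706 when 1 library was left out. The replicate numbers are not stated to pair the libraries. Deviations from group means correlated at −0.39 to 0.22 for same-numbered libraries and at −0.34 to 0.49 for others. Such deviations sum to 0 within a group, so these correlations cannot settle whether the numbers mark a pairing. With the number as a replicate block the 3 comparisons called 2, 2159 and 772 genes, and Cd59a under the compound and Cfi against NCD vehicle were no longer called (adjusted p = 0.084 and 0.088).

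Some estimates changed sign. With library size only these were C3 (−0.35), Cd55 (−0.30) and Cd59a (−0.56) in the model, Cfb (0.13) under the compound and C1ra (0.14) against NCD vehicle. With limma-voom they were Cfb (0.04) in the model and C1ra (0.06) against NCD vehicle, and with the replicate block C1ra (0.03) against NCD vehicle. When 1 library was left out the estimates ran across 0 for 3 genes in the model (C3 −0.19 to 0.54, Cfb −0.79 to 0.41, Cd59a −0.15 to 0.23), for C4b (−0.25 to 2.19) and Cfb (−0.93 to 0.04) under the compound, and for C4b (−0.75 to 1.14), Serping1 (−0.74 to 0.07), C1ra (−0.30 to 0.46) and C1s1 (−0.75 to 0.64) against NCD vehicle. Signs changed without NCD vehicle replicate 1 for Cfb and (to 0.00) Cd59a in the model and for Serping1, C1ra and C1s1 against NCD vehicle; without HFD-STZ vehicle replicate 1 for C3, Cfb and Cd59a in the model; without HFD-STZ vehicle replicate 2 (0.19) in the model or 3 under the compound for Cfb; and without HFD-STZ DHZ replicate 3 for C4b in both, or 2 for C1ra (0.07). The cause of these changes was not tested. C3 and Cfi under the compound kept their calls in all 8 other settings (2.08 to 2.76 and 2.69 to 3.70) and all 9 left-out libraries. C1qb and Itgb2 did too, while C1qa, C1qc, C3ar1, C1rl and Csmd1 each lost theirs in at least 1. Depth limits C4b, Cfi and Cfb, with 3 to 5 counts each in HFD-STZ vehicle replicate 2.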
